A study of Mus musculus with 8 samples.

Results

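A set of 9 transcription factor genes of the chondrocyte lineage was examined in the resting and the proliferative zone of the mouse growth plate. They were Sox9, Sox5, Sox6, Runx1, Runx2, Runx3, Mef2c, Trps1 and Foxa2, picked by name for their roles in chondrocytes, with earlier results of these data known, and all 9 were found among the 43629 genes of the count table, of which 17492 had a count. Cells were taken by laser microdissection from 8 µm frozen sections of the growth plates of 4 Axin2CreERT2;R26RTdTomato mice at P30, after 3 consecutive daily tamoxifen injections from P23. Each mouse gave 1 library of resting chondrocytes (RZ), which were red fluorescent, and 1 library of proliferative chondrocytes (PZ), which were flattened, unlabeled and at least 50 µm from the secondary ossification center, so n was 4 per zone. Both groups thus shared the genotype, the age and the tamoxifen. Cre in these mice is driven from Axin2, so the red cells are those in which that gene was active when tamoxifen was given, and their descendants. The labels name tibiae and the study's methods name tibiae and femora. By the labels, mice 1 and 2 were males and mice 6 and 13 were females.

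SOX9 is the master transcription factor of cartilage, and SOX5 and SOX6, which lack an activation domain of their own, help it bind and switch on the genes of the cartilage matrix. RUNX2, with RUNX3, drives chondrocytes toward hypertrophy and is also required for osteoblasts, whereas RUNX1 is best known from hematopoiesis and is also made in skeletal precursors. MEF2C promotes hypertrophy and is held back by class IIa histone deacetylases. TRPS1 is a GATA-type repressor whose loss disturbs the growth plate, and FOXA2 is a forkhead factor of late, hypertrophic chondrocytes. The study also cites earlier work in which cells expressing Foxa2 in the resting zone take part in renewing the growth plate.

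Of the 9 genes, 7 could be tested in the main fit and 2 of these differed between the zones past the threshold, where 16.2% of all genes tested did: Sox9 was higher in PZ and Runx1 was higher in RZ. Sox5 and Mef2c were also higher in every PZ library than in any RZ library, a separation that 33.1% of all genes tested showed in one direction or the other, but their adjusted p was above the threshold in the main test. Runx2, the most abundant of the 3 Runx genes in both zones, did not pass the test, nor did Runx3 and Trps1. Sox6 and Foxa2 had too few counts for that fit, 65 and 8 in all. The counts carry a doubt about the strand they were made on, which is described with the libraries and touches all 9 genes.

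The 3 Runx genes share a stretch of sequence at their distal start of transcription, and it is shown because Runx1 was the one of the 3 that differed between the zones and the stretch is a feature that their choice by name did not use. Each mammalian Runx gene is known to have a distal and a proximal promoter. Promoter windows of RefSeq (GRCm38.p6), each from 250 bases before to 50 after a start, were given for 7 of the 9 genes, with 18 windows in all. Sox9 and Trps1 had no entry. The windows were searched on both strands for the RUNX motif ACCACA and the SOX motif AACAAT, and overlapping matches were all counted. The distal windows are printed 5′ to 3′ on the gene's strand, with matches to the RUNX motif in capitals.
Runx1, chr16:92826025-92826324, minus strand: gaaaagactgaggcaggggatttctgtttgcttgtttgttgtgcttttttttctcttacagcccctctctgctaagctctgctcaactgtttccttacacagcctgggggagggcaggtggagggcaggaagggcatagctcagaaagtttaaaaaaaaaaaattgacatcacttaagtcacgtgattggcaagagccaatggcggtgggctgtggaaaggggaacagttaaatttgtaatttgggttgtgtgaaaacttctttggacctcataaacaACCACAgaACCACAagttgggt
Runx2, chr17:44814578-44814877, minus strand: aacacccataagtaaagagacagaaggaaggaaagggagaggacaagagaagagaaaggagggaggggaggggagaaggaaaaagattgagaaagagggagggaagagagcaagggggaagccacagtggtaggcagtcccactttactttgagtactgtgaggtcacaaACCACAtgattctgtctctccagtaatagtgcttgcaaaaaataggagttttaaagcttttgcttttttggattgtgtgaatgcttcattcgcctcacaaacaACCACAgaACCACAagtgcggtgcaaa
Runx3, chr4:135120395-135120694, plus strand: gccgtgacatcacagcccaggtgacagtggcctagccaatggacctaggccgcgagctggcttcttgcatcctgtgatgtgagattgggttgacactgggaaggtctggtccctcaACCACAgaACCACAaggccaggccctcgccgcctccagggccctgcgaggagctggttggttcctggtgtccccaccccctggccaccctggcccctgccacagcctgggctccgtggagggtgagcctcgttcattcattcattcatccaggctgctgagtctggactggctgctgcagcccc

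All 3 windows held 2 RUNX matches whose first bases lay 8 bases apart on the same strand, and Runx2 held another match 80 bases before its start. The pair began 29 bases after the start in Runx1, 24 bases after it in Runx2 and 134 bases before it in Runx3. The longest run of bases common to the 3 windows contained this pair and was 18 bases long.
Shared run: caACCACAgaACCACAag

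Of 32851 promoter windows of the same length, 16.8% held the RUNX motif, 1.81% held it at least 2 times and 7 held a pair at this distance. The 18-base run was found in 4 windows, those of the 3 Runx genes and that of Gm16225, which lies on the opposite strand over the Runx3 window. The proximal windows of Runx1 (chr16:92697280-92697579) and Runx3 (chr4:135152295-135152594) held no match to either motif, nor did those of Sox5, Mef2c and Foxa2. Among the 6 windows of Sox6, 2 held a RUNX match and 1 held a SOX match, a motif that 10.7% of all windows held. The matches are letters in a reference sequence and no binding was measured here.

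RZ libraries held 192882 to 462044 counts and PZ libraries 249284 to 631474, so genes with few counts, as most of these factors were, were measured with limited precision. Values are CPM, a library's counts put on a common scale of total counts, adjusted by edgeR's TMM factors, as mean ± SD of 4 libraries. A gene was called different at an adjusted p below 0.01 and an absolute log2 fold change, RZ over PZ, above 1, in edgeR's quasi-likelihood test with the mouse as a block. The filter of edgeR against low counts kept 3793 genes, of which 16.2% were called, 10.1% higher in RZ and 6.06% higher in PZ. A gene with hardly a count in one zone, such as Runx1, could pass this filter only through the other zone. All 10 chondrocyte markers had counts in both zones, and 8 of them were called higher in PZ, with summed levels of 6682 to 16930 CPM in RZ and 31113 to 53622 in PZ. Col1a1, the main collagen of bone, averaged 14832 CPM in RZ, above the 5805 CPM of the cartilage collagen Col2a1 there. The RZ library of mouse 6 stood apart from the other RZ libraries, with the highest chondrocyte sum (the others reached at most 9496 CPM) and the lowest sum of osteoblast and osteocyte markers. Values of Sox9, Sox5, Runx1, Runx3 and Trps1 are also given without it, whereas those of the listed genes and the ratios of counts are not.

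The strand on which the reads were counted bears on every value here. The library kit used keeps the strand of the RNA it is given, the in vitro transcription before it yields antisense RNA, and the strand setting of the counting is not given in the sources used here. Of the 13 protein genes of the mitochondrial genome, mt-Nd6 alone lies on its strand, and it had 137491 counts against 37887 for the other 12 together, which made 69.4% to 82.9% of the counts on the 13 genes in each library. In the libraries of female mice, 18683 counts were on Tsix and 1367 on Xist, the abundant RNA that lies opposite to it. Genes that share exon bases with a gene on the opposite strand were 32.5% of the genes with a count and held 70.5% of all counts. The counts of any gene, Sox9 and Runx1 included, may thus be of reads from the strand opposite to its own transcript. The reads were not recounted here, and what part of a gene's RNA its counts represent was not tested.

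**Figure D1:**
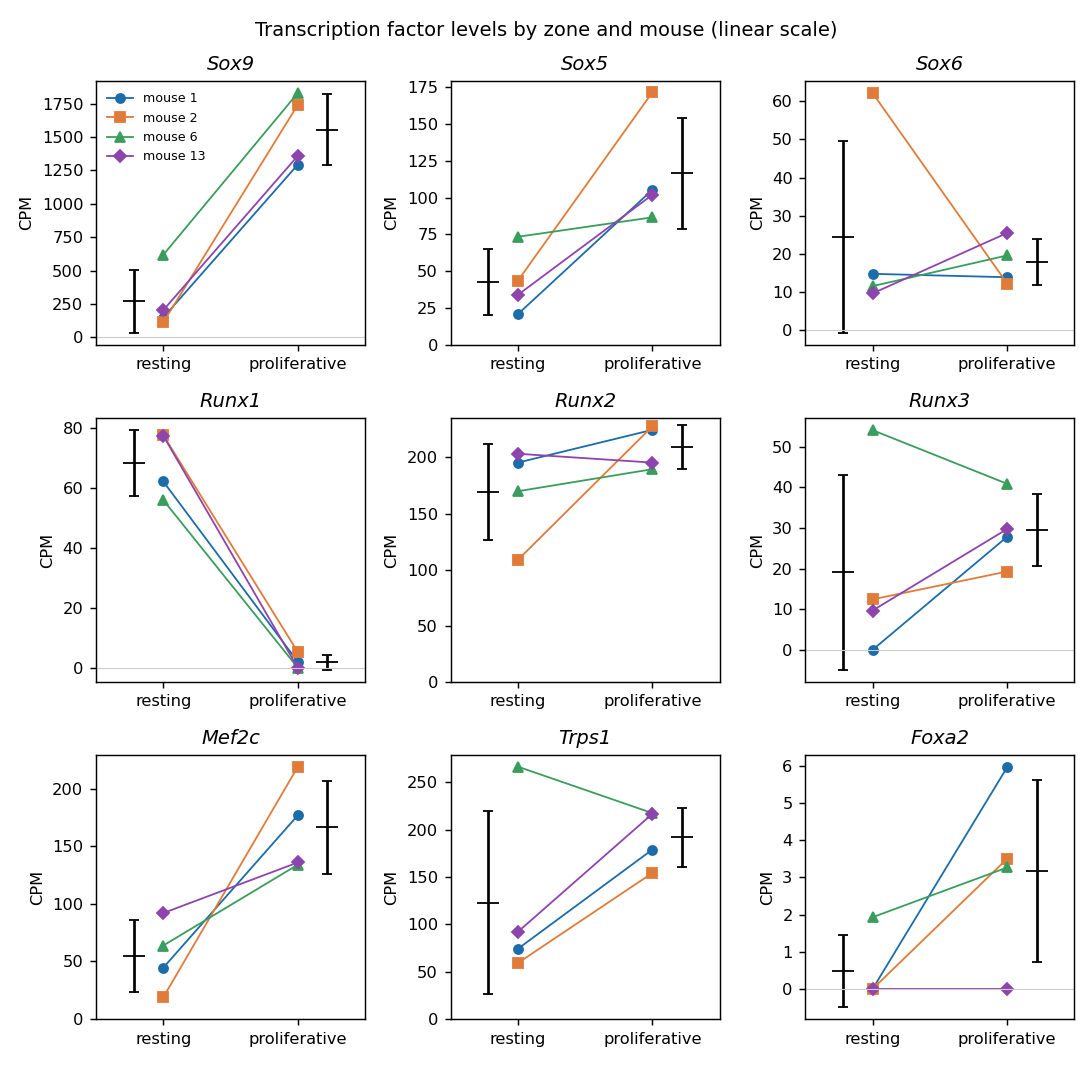
CPM of the 9 transcription factors (linear vertical axes, one range per panel) in the resting and proliferative zone, with one line per mouse; black bars show the mean ± SD of 4 libraries. Sox9, Sox5 and Mef2c were higher in all 4 PZ libraries than in any RZ library, Runx1 was the reverse, and the other genes overlapped.

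Sox9 (chr11:112782224-112787760, plus strand; coordinates of genes are those of GRCm38) had the highest level of the 9 factors per kilobase of exon in every library, although in CPM Runx2 was above it in the RZ library of mouse 1 and level with it in that of mouse 13. Its levels were 148, 112, 618 and 203 CPM in the RZ libraries of mice 1, 2, 6 and 13 and 1294, 1742, 1830 and 1359 CPM in their PZ libraries. Every PZ library was above every RZ library, and the RZ library of mouse 6 was about 3 times as high as the next. The means were 270 ± 235 CPM in RZ and 1556 ± 269 in PZ, with a log2 fold change of -2.75 (SE 0.37, adjusted p = 0.000413, edgeR quasi-likelihood), a fitted 6.75-fold difference. Within a mouse, PZ exceeded RZ by 8.74-fold in mouse 1, 15.6-fold in mouse 2, 2.96-fold in mouse 6 and 6.69-fold in mouse 13. Without the RZ library of mouse 6 the RZ mean was 154 ± 46.1 CPM (n = 3) and the log2 fold change -3.23 (edgeR adjusted p = 5.53e-05). Without the PZ library of mouse 13 the adjusted p was 0.0116, just outside the threshold, with a log2 fold change of -2.92. In these bulk samples, fewer cells of a type and less RNA per cell cannot be told apart.

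Sox5 (chr6:143828425-144781977, minus strand) had fewer counts, between 7 and 98 per library. It measured 20.7, 43.5, 73.3 and 33.9 CPM in the RZ libraries of mice 1, 2, 6 and 13, and 105, 172, 86.6 and 102 CPM in PZ. The zones did not overlap, although in mouse 6 they were close, with a PZ over RZ ratio of 1.18 against 3.01 to 5.08 in the other mice. The log2 fold change was -1.40 (SE 0.44, adjusted p = 0.0344, edgeR quasi-likelihood), so Sox5 was not called among the 3793 genes. It was called without the RZ library of mouse 6 (edgeR adjusted p = 0.00705) and without the PZ library of that mouse (0.00799). An annotated gene on the opposite strand, Sox5os1, overlaps 1330 exon bases of Sox5 and had 2 counts, both in 1 PZ library.

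Sox6 (chr7:115470872-116038796, minus strand), the close paralog of Sox5, had 33 counts in RZ and 32 in PZ and did not pass the first filter. Its RZ levels were 14.8, 62.1, 11.6 and 9.68 CPM in mice 1, 2, 6 and 13, and its PZ levels 13.9, 12.3, 19.6 and 25.5 CPM. The RZ library of mouse 2 was far above the others, and apart from it the zones overlapped. A wider fit over the 11273 genes with at least 10 counts in all, of which 9.84% were called, gave a log2 fold change of 0.07 (SE 0.76, edgeR adjusted p = 0.974). Without the RZ library of mouse 2 the mean was 12.02 ± 2.59 CPM (n = 3) in RZ against 17.8 ± 6.00 in PZ, and the sign turned, to -0.74. A difference of Sox6 in either direction was not detectable at this depth.

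The make-up of the SOX trio differed in range between the zones. Sox9 held 51.4% to 87.9% of the summed counts of Sox9, Sox5 and Sox6 in the RZ libraries and 90.4% to 94.5% in PZ. The lowest share, 51.4% in mouse 2 (exact 95% interval 39.2% to 63.6%), came from 70 counts, of which 20 were Sox6. There were 0.119 to 0.389 Sox5 counts per Sox9 count in RZ and 0.0473 to 0.0986 in PZ, so these ranges did not overlap. Intervals here and below cover counting error only.

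**Figure D2:**
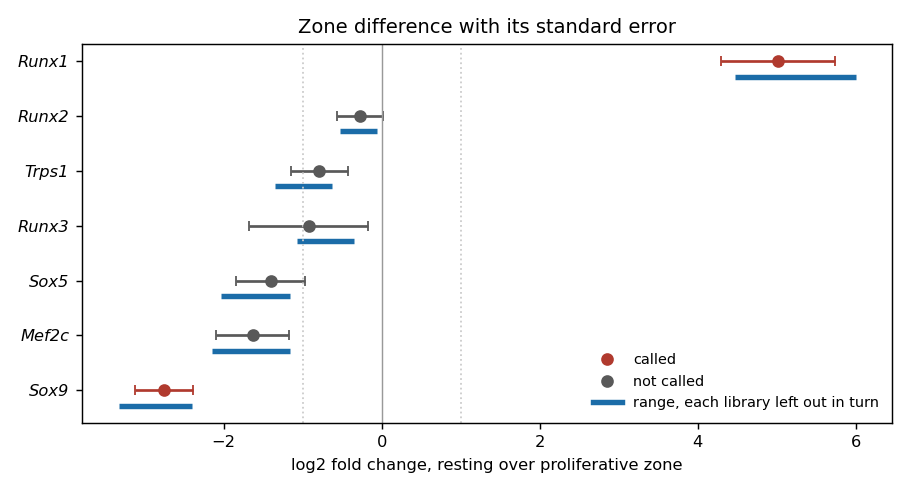
Log2 fold change, RZ over PZ, of the 7 factors that passed the filter on low counts, with the standard error of the edgeR fit; red points were called, grey points were not, and the blue line below each spans the values with each library left out in turn, where the gene could still be tested. Sox9 at -2.75 and Runx1 at 5.02 were called, and no line crosses 0.

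Runx1 (chr16:92601466-92826149, minus strand) had counts almost only in RZ. It had 21, 25, 29 and 16 counts in the RZ libraries of mice 1, 2, 6 and 13, and 1, 3, 0 and 0 counts in their PZ libraries. These counts correspond to 62.2, 77.6, 56.0 and 77.4 CPM in RZ, a narrow range, and to at most 5.26 CPM in PZ. A count of 0 allows up to 3 counts, or 4.90 CPM in the PZ library of mouse 6 and 12.7 CPM in that of mouse 13. The rate of counts, summed over the libraries of a zone, was 36.2 times as high in RZ as in PZ (exact 95% interval 13.7 to 136). Runx1 was called higher in RZ, with an edgeR adjusted p of 0.000597. The fitted log2 fold change of 5.02 (SE 0.72) depends on the small count that the fit adds to near-empty libraries. With each library left out in turn it ranged from 4.47 to 6.00, and it was 6.00 without the RZ library of mouse 2 and 5.85 without the PZ library of that mouse. It was 4.59 without the RZ library of mouse 6 (edgeR adjusted p = 0.00188). Without the PZ library of mouse 13 it was 4.68, with an adjusted p of 0.0116 that missed the threshold.

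Runx1 is also a gene of blood cells, and markers of blood cells moved with it. The summed level of 10 hematopoietic markers was 587 to 1098 CPM in RZ and 9.80 to 133 in PZ. Ptprc, which encodes the leukocyte antigen CD45, averaged 80.5 ± 20.9 CPM in RZ and 3.48 ± 6.96 in PZ. The 8 neutrophil markers summed to 3083 to 3785 CPM in RZ and 0 to 545 in PZ, and the 7 osteoclast markers to 1456 to 4458 in RZ and 14.7 to 449 in PZ. The 7 B lymphoid markers summed to 136 to 299 CPM in RZ, with Pax5 at 0, and to 3.27 to 27.8 in PZ. The 6 markers of T and NK cells summed to 5.79 to 9.68 CPM in RZ, with Cd3e and Cd8a at 0, and were all at 0 in PZ. Endothelial markers, of which Pecam1 and Kdr were at 0 in PZ, summed to 208 to 358 CPM in RZ and 81.7 to 115 in PZ. Among the RZ libraries of mice 1, 2, 6 and 13 the hematopoietic sums were 1098, 997, 587 and 852 CPM. Runx1 was at 62.2, 77.6, 56.0 and 77.4 CPM there, from only 16 to 29 counts, so its order among these libraries is uncertain. The part of these cells in the Runx1 result was not tested.

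**Figure D3:**
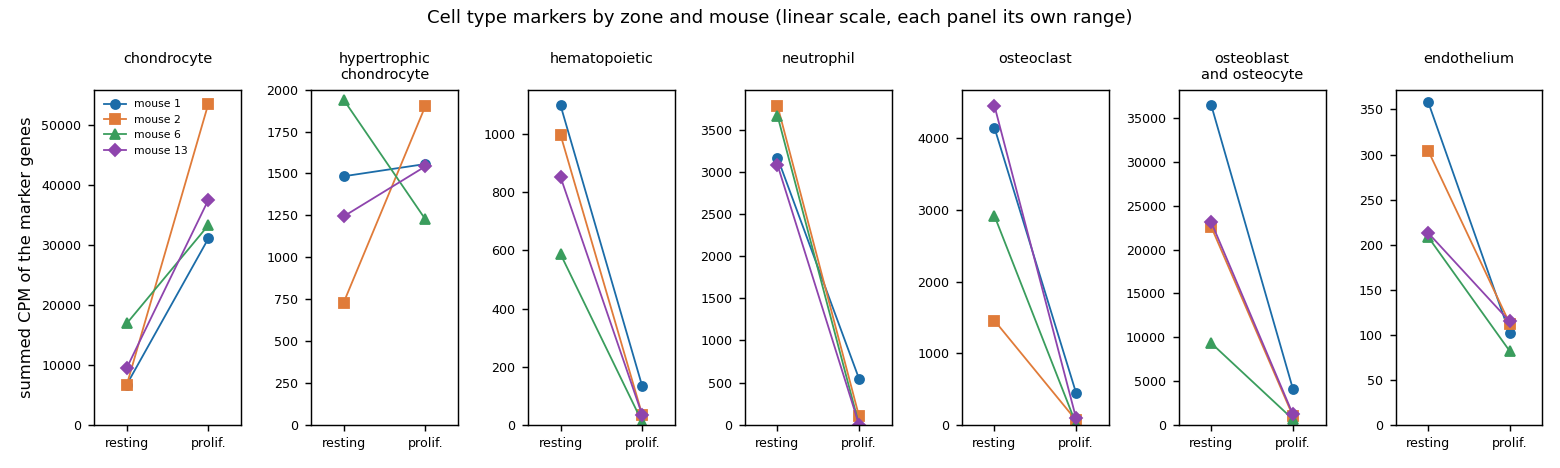
Summed CPM of 7 lists of cell type markers in each zone, with one line per mouse and a linear axis of its own range in each panel. Hematopoietic, neutrophil, osteoclast, osteoblast and endothelial sums were higher in RZ than in PZ in every mouse, the chondrocyte sum was lower, and the hypertrophic sum overlapped.

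Runx2 (chr17:44495987-44814797, minus strand) was detected in every library of both zones. It measured 195, 109, 170 and 203 CPM in the RZ libraries of mice 1, 2, 6 and 13 and 225, 228, 190 and 195 CPM in PZ. The ranges overlapped, with the RZ library of mouse 2 the lowest of the 8. The means of 169 ± 42.9 and 209 ± 19.7 CPM gave a log2 fold change of -0.27 (SE 0.29, edgeR adjusted p = 0.533), and PZ was higher in 3 of 4 mice. Markers of osteoblasts and osteocytes, cells that also use RUNX2, summed to 9310 to 36450 CPM in RZ and 632 to 4101 in PZ. Most of the RZ sum was Col1a1 (14832 CPM on average) and Col1a2 (7294). Sp7, on the same list, averaged 14.7 ± 6.51 CPM in RZ and 39.4 ± 10.6 in PZ, without overlap. The other markers of the list averaged higher in RZ. The part of these cells in the Runx2 level was not tested. There were 0.275 to 1.32 Runx2 counts per Sox9 count in RZ and 0.104 to 0.174 in PZ.

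A short noncoding gene on the opposite strand of Runx2 was assigned more counts than Runx2 itself. Runx2os1 (chr17:44735845-44737612, plus strand, 792 exon bases) overlaps 519 exon bases of Runx2, in the 5′ untranslated first exon of an annotated transcript. It had 283, 198, 291 and 184 counts in the RZ libraries of mice 1, 2, 6 and 13, and 452, 528, 284 and 149 in PZ. It had 2.45 to 5.66 counts for each Runx2 count and, per kilobase of exon, 27.3 to 63.1 times the level of Runx2. Its level was 726 ± 162 CPM in RZ and 730 ± 221 in PZ (log2 fold change 0.08, edgeR adjusted p = 0.843), with the ranges overlapping. With the strand of the counting in doubt, as described above, which of the counts on Runx2 and Runx2os1 came from which gene cannot be told apart.

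Runx3 (chr4:135120652-135177990, plus strand) had 0, 4, 28 and 2 counts in the RZ libraries of mice 1, 2, 6 and 13 and 14, 11, 25 and 7 in PZ. In CPM, RZ gave 0, 12.4, 54.0 and 9.68 and PZ 27.8, 19.3, 40.8 and 29.7. The RZ library of mouse 6 was the highest of all 8, while the other RZ libraries were below every PZ library. The count of 0 in mouse 1 allows up to 8.88 CPM. The log2 fold change was -0.92 (SE 0.75, edgeR adjusted p = 0.406), and without the RZ library of mouse 6 the RZ mean was 7.37 ± 6.53 CPM (n = 3) and the gene no longer passed the filter.

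Runx1 took a larger part of the Runx counts in every RZ library than in any PZ library. Its share of their summed counts was 24.1%, 39.1%, 20.0% and 26.7% in the RZ libraries of mice 1, 2, 6 and 13, and 0.781%, 2.08%, 0% and 0% in PZ. The lowest RZ share, in mouse 6, rested on 145 counts (exact 95% interval 13.8% to 27.4%), and the highest PZ share, in mouse 2, on 144 counts (0.432% to 5.97%). Runx2 held 54.7% to 75.9% in RZ and 82.3% to 90.3% in PZ. Runx3 held 0% to 19.3% in RZ and 7.64% to 17.7% in PZ.

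**Figure D4:**
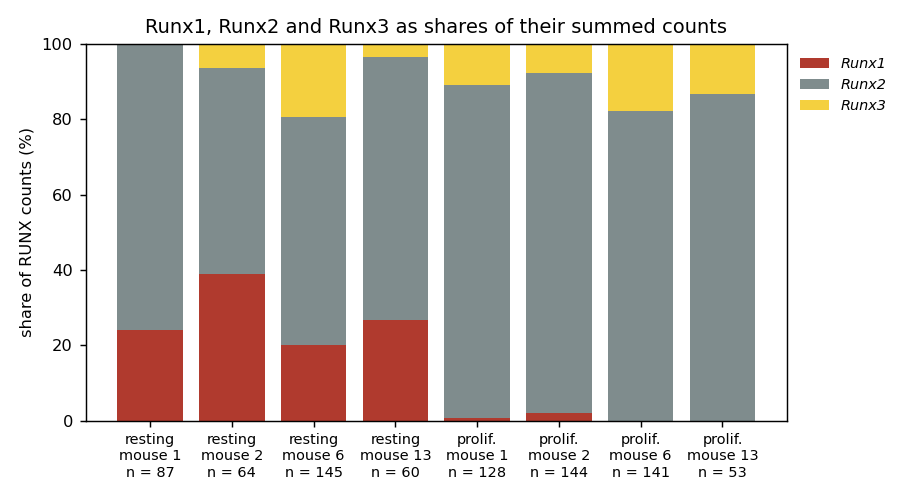
Share of the summed Runx1, Runx2 and Runx3 counts held by each gene (percent, linear axis) in each library, with the summed counts as n under each bar. Runx1 held 20.0% to 39.1% in the 4 RZ libraries and at most 2.08% in the 4 PZ libraries.

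Mef2c (chr13:83504034-83667080, plus strand) was lower in RZ in every mouse. Its RZ levels were 44.4, 18.6, 63.7 and 92.0 CPM in mice 1, 2, 6 and 13, and its PZ levels 177, 219, 134 and 136 CPM. The zones did not overlap, and PZ exceeded RZ by 1.48-fold in mouse 13 up to 11.8-fold in mouse 2. The log2 fold change was -1.63 (SE 0.46), with an edgeR adjusted p of 0.0232, so Mef2c was not called. The likelihood ratio test (adjusted p = 0.00349) and DESeq2 (0.00718) called it. Macrophages, B cells and endothelium also express Mef2c, and the sums of their markers were higher in RZ, where Mef2c was lower: 921 to 1024 CPM against 198 to 493 for macrophages and 136 to 299 against 3.27 to 27.8 for B lymphoid cells. Most of the macrophage sum in PZ was Csf1r, at 360 ± 62.3 CPM in RZ and 312 ± 89.0 in PZ. The other macrophage markers averaged at most 23.5 CPM in PZ. The 6 skeletal muscle markers, muscle being another tissue that uses Mef2c, summed to 0 to 3.11 CPM in RZ, with Acta1, Myh4, Ckm and Tnnc2 at 0, and to 0 to 14.7 in PZ, with Myh4, Ckm and Tnnc2 at 0. Markers of prehypertrophic and hypertrophic chondrocytes, which make Mef2c, were partly higher in PZ with it: the 7 markers summed to 729.7 to 1940 CPM in RZ and 1227 to 1901 in PZ, with overlap, Ihh had 0 counts in RZ and 39 in PZ, and Panx3, Col10a1 and Pth1r were called higher in PZ and Mmp13 and Ibsp higher in RZ, as given below. The part of all these cells in the Mef2c levels was not tested. There were 0.171 to 0.452 Mef2c counts per Runx2 count in RZ and 0.696 to 0.962 in PZ.

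Trps1 (chr15:50654752-50890463, minus strand) measured 74.0, 58.996, 266 and 92.0 CPM in the RZ libraries of mice 1, 2, 6 and 13 and 179, 154, 217 and 217 CPM in PZ. The RZ library of mouse 6 exceeded every PZ library, and the other RZ libraries lay below all of them. The means were 123 ± 96.6 and 192 ± 30.8 CPM, with a log2 fold change of -0.79 (SE 0.36, edgeR adjusted p = 0.132). Without the RZ library of mouse 6 the RZ mean was 75.0 ± 16.5 CPM (n = 3) and the log2 fold change -1.25, with an edgeR adjusted p of 0.0181, above the threshold. In the wider fit described for Sox6, Trps1 was not called with all libraries (edgeR adjusted p = 0.0557), and was called without the RZ library of mouse 6 (0.00554) or without its PZ library (0.0064), but not without both (0.0117). Trps1 kept a narrow ratio to Sox9 among the RZ libraries, with 0.431 to 0.528 Trps1 counts per Sox9 count, against 0.0885 to 0.159 in PZ.

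Foxa2 (chr2:148042877-148046969, minus strand) was near the limit of detection. It had 0, 0, 1 and 0 counts in the RZ libraries of mice 1, 2, 6 and 13 and 3, 2, 2 and 0 in PZ. The rate of counts was 4.40 times as high in PZ as in RZ, with an exact 95% interval of 0.565 to 198 that includes no difference. It passed neither filter, and in a fit over all genes with a count its adjusted p was 0.832 (edgeR quasi-likelihood). No difference between the zones was detectable at this depth.

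Of the 9 factors, 7 passed the first filter, and 2 of these were called, against 16.2% of all genes tested. Runx1 was the 1 called higher in RZ, against 10.1% of all genes, and Sox9 the 1 higher in PZ, against 6.06%. The median log2 fold change of the 7 was -0.92, beside 0.04 over all genes tested. Of them 4, Sox9, Sox5, Runx1 and Mef2c, had no overlap between the zones, as did 33.1% of all genes tested. For each of these 4 the exact two-sided permutation test over the libraries gave p = 0.0286, the smallest that 4 against 4 allows. The exact sign flip within mice gave p = 0.125, its smallest. Any gene without overlap between the zones gives these values in the 2 exact tests. They thus restate the separation by which the 4 were picked and add no evidence to it. The permutation over the libraries also left the pairing by mouse aside. In the wider fit, Sox5 (edgeR adjusted p = 0.00652) and Mef2c (0.000606) were called as well, so that 4 of the 8 factors tested there were called, against 9.84% of all genes. The call of Sox5 there ended in 13 of the 19 alternatives that could test it, among them no block (edgeR adjusted p = 0.0203), DESeq2 (0.0304), relative log expression factors (0.0109), scaling by library totals alone (0.0358) and each library left out except those of mouse 6. The call of Mef2c ended in 5 of 19, all of them without a library of mouse 1 or mouse 2. The zone difference was also compared between male and female mice. No factor had an adjusted p below 0.05 in that edgeR test, and 2 of the 7, Sox9 and Mef2c, had an unadjusted p below it, as had 5.01% of all genes.

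The order of the factors was compared per kilobase of exon. The RNA had been amplified in 2 rounds of in vitro transcription, and its effect on levels per length was not tested, nor was that of the strand counted. In RZ the order was Sox9 (65.3 CPM per kilobase), Runx2 (19.2), Trps1 (9.18), Runx1 (5.68), Runx3 (3.81), Mef2c (3.48), Sox5 (2.98), Sox6 (1.65) and Foxa2 (0.204). Only Sox9 and Runx2 were neighbours whose libraries did not overlap. In PZ the order was Sox9 (376), Runx2 (23.7), Trps1 (14.3), Mef2c (10.6), Sox5 (8.10), Runx3 (5.88), Foxa2 (1.34), Sox6 (1.20) and Runx1 (0.151). There the libraries of Sox9 and Runx2, of Runx2 and Trps1, of Runx3 and Foxa2, and of Sox6 and Runx1 did not overlap, and the other neighbours did. Sox9, Runx2 and Trps1 led in both zones, and Runx1 was the fourth in RZ and the last in PZ.

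Most of the tested cartilage genes known as targets of the SOX trio were called higher in PZ. Of 20 listed genes, 18 were tested and edgeR called 12 higher in PZ and 0 higher in RZ, against 6.06% and 10.1% of all genes. At an unadjusted p below 0.05 the numbers were 18 and 0, against 17.2% and 21.5% of all genes, and DESeq2 called 14 and 0, against 8.01% and 12.4%. The median log2 fold change was -1.75, beside 0.04 over all genes. With scaling by library totals alone, 6 were called higher in PZ, against 4.59% of all genes. Sox5, which is on this list, was not called. Markers of other cells moved the other way, as given above for osteoblasts, neutrophils and osteoclasts and below for erythroid cells, with higher sums in RZ in every mouse, and their part in these differences was not tested. Hapln1, the link protein of the aggrecan complex, averaged 1512 ± 1169 CPM in RZ and 14017 ± 4291 in PZ (log2 fold change -3.38). Col11a1, a chain of the cartilage fibril, averaged 641 ± 298 and 4022 ± 1276 CPM (-2.63). Cnmd, which encodes the antiangiogenic chondromodulin, averaged 136 ± 74.2 and 914 ± 177 CPM (-2.83). Acan, the large proteoglycan, had a log2 fold change of -2.36 and Snorc, a small membrane proteoglycan, one of -2.21. Col2a1, the main collagen of cartilage, had one of -1.37.

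**Figure D5:**
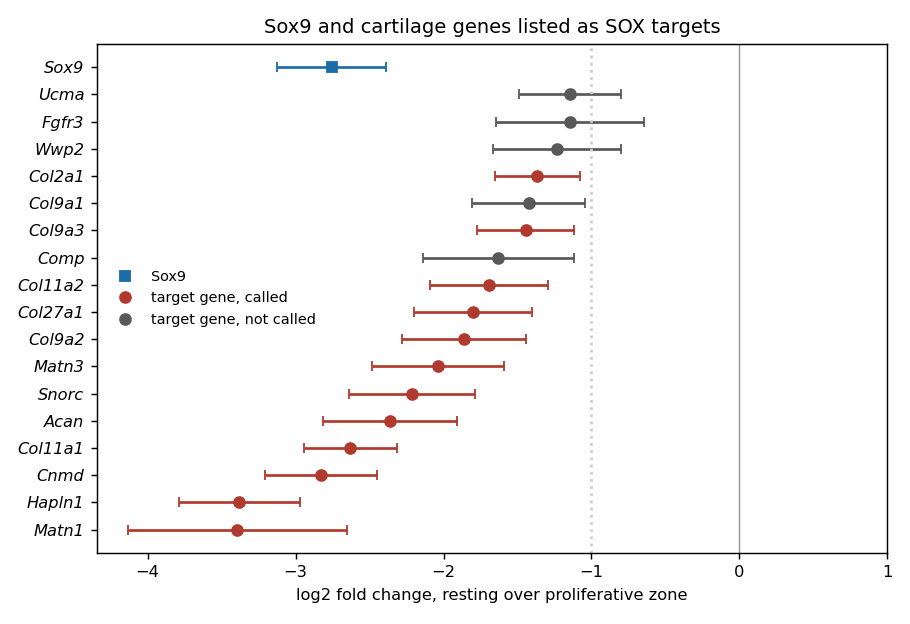
Log2 fold change, RZ over PZ, with its standard error, of Sox9 (blue square) and of 17 of the 18 tested cartilage genes listed as targets of SOX9, SOX5 and SOX6, Sox5 itself being left to the plot of the factors; red points were called and grey points were not. All 17 lie below 0, from Matn1 at -3.39 to Ucma at -1.15, and Sox9 lies at -2.75.

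Genes of the later steps, downstream of RUNX2, RUNX3 and MEF2C, were called in both directions. Of 16 listed, 13 were tested, Runx2 and Mef2c themselves among them, and 3 were called in each direction, against 10.1% of all genes called higher in RZ and 6.06% higher in PZ. Panx3, a channel protein of prehypertrophic cells, averaged 23.7 ± 17.8 CPM in RZ and 753 ± 165 in PZ (log2 fold change -4.87), and Pth1r, the receptor of parathyroid hormone and PTHrP, 133 ± 109 and 455 ± 69.0 (-1.95). Col10a1, the collagen of hypertrophic cartilage, averaged 7.64 ± 10.1 and 193 ± 136 CPM (-4.19). It shares bases with Nt5dc1 on the opposite strand, which averaged 194 CPM in RZ and 6444 in PZ, as does Pth1r with Myl3. The 3 genes higher in RZ were Mmp13 (526 ± 172 against 22.1 ± 30.5 CPM), Ibsp (543 ± 314 against 39.5 ± 70.7) and Spp1 (333 ± 216 against 29.0 ± 47.2), which osteoblasts or osteoclasts also make. Ihh, the hedgehog ligand of prehypertrophic cells, was called higher in PZ in the wider fit.

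None of the tested cofactors of the RUNX proteins was called in the first fit. Of 22 listed, 5 passed its filter, edgeR and DESeq2 called 0, where 16.2% and 20.4% of all genes were called, and 2 had an unadjusted p below 0.05, both lower in RZ, as had 17.2% of all genes. With 5 genes these counts say little about the group. Cbfb, which encodes the partner that all RUNX proteins need to bind DNA, averaged 72.3 ± 45.1 CPM in RZ and 111 ± 16.2 in PZ (edgeR adjusted p = 0.293). Of the 15 genes of the MEF2 family and its deacetylase branch, 7 were tested and 1 was called, a share near the 16.2% of all genes. It was Hdac7, a class IIa deacetylase that binds MEF2 proteins, at 251.4 ± 85.4 CPM in RZ and 61.3 ± 20.3 in PZ (log2 fold change 2.12, edgeR adjusted p = 0.000783). Its chondrocyte relative Hdac4 averaged 40.3 ± 10.5 and 18.6 ± 11.9 CPM and was not called (edgeR adjusted p = 0.155). Hdac7 overlaps Slc48a1 on the opposite strand, which was also called higher in RZ (log2 fold change 2.78, edgeR adjusted p = 0.00191).

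The next 3 lists held 17 tested genes in all, of which 3 were called, each higher in RZ, where 10.1% of all genes were. Among 11 other SOX genes, 3 were tested and Sox4, a factor of progenitor cells, was called, at 109 ± 36.9 CPM against 7.81 ± 3.66 (log2 fold change 3.68). It shares bases with Gm26735 on the opposite strand, which was also called higher in RZ (log2 fold change 3.50, edgeR adjusted p = 5.15e-05). Among 26 partners and upstream regulators of SOX9, 9 were tested and 1 was called, Epas1, which encodes the hypoxia factor HIF-2α, at 69.9 ± 24.5 CPM in RZ and 11.5 ± 7.46 in PZ. Its relative Hif1a averaged 84.5 ± 42.3 and 236 ± 56.8 CPM, without overlap between the zones, and was not called (edgeR adjusted p = 0.0314). Of 17 GATA and FOX genes, the relatives of Trps1 and Foxa2, 5 were tested and 1 was called, the forkhead factor Foxp1, at 119 ± 57.9 CPM in RZ and 3.42 ± 5.73 in PZ. Gata1, the erythroid factor, was called higher in RZ in the wider fit, and erythroid markers summed to 1650 to 11383 CPM in RZ and 0 to 1717 in PZ. Foxa3 had 12 counts in RZ and 51 in PZ and was not called (edgeR adjusted p = 0.0667), and Foxa1 had 0 counts in either zone.

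Transcription factors of hedgehog and PTHrP signalling, the loop that paces the growth plate, completed the lists. Of 11 listed, 4 were tested and 2 were called, both higher in RZ, against 10.1% of all genes. Gli1, a target and effector of hedgehog signalling, averaged 263 ± 60.01 CPM in RZ and 26.4 ± 22.2 in PZ (log2 fold change 3.52). It shares bases with Arhgap9 and Gm47200 on the opposite strand, and Arhgap9 was called higher in PZ (log2 fold change -1.58, edgeR adjusted p = 0.00674). Fosl2, of the AP-1 family, averaged 112 ± 24.8 and 20.6 ± 13.2 CPM (2.70). In the wider fit Cebpb, a bZIP factor, was called higher in RZ as well. Sums of osteoblast and blood cell markers were higher in RZ as given above. The 6 marrow stroma markers summed to 118 to 407 CPM in RZ and 4.90 to 55.7 in PZ. The part of all these cells in these differences was not tested.

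For each factor past the first filter, the genes with the most similar pattern were taken by Pearson's r of log2(CPM + 1) over the 8 libraries, as a description; the 2 zones and the same libraries underlie every r. Several of these genes share exon bases with a gene on the opposite strand, so that their counts may be those of the other gene: Smpd3 with Prmt7, Nt5dc1 and Col10a1 with each other, 0610009E02Rik with Notch1, Trim43c with 9330159M07Rik, Gm17110 with Bmpr1a, Mllt11 with Cdc42se1 and Gm16740, Mgea5 with Gm15491 and Fgd1 with Tsr2. Sox9 was most like Fbln7 (r = 0.995), Fmod (0.992), which encodes the matrix proteoglycan fibromodulin, and Smpd3 (0.992), a sphingomyelinase of the skeleton. Sox5 was most like Nt5dc1 (0.973), Col10a1 (0.965) and Matn3 (0.964), and Runx1 most like 0610009E02Rik (0.987), Snx10 (0.986) and Sdc2 (0.984). Mef2c was most like Mllt11 (0.989), Prorsd1 (0.976) and Ccdc125 (0.975). The nearest genes of the other 3 factors were Gm14011 (0.960), Sec16a (0.953) and Trim43c (0.949) for Runx2, Vit (0.981), Golga4 (0.972) and Gm17110 (0.962) for Runx3, and C78339 (0.975), Mgea5 (0.965) and Fgd1 (0.965) for Trps1.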

How the data were processed

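Both zones were cut from each of 4 mice and sequenced after 2 rounds of in vitro transcription. Per the labels, the authors aligned reads with HISAT2 2.1.0 to GRCm38 and counted them per gene with HTSeq 0.11.2, and they deposited raw counts, with a strand setting that is not given in the sources used here; the authors' own comparison (folds and p-values) was not used, only its gene names. Counts were scaled to counts per total by TMM and tested with edgeR 4.0.16 (R 4.3.3) by the quasi-likelihood test on zone with the mouse as a block, with Benjamini-Hochberg adjustment over all genes of a fit. The first fit held the 3793 genes past edgeR's filter (minimum count 10, minimum total 15), and the wider one the 11273 genes with at least 10 counts. The study's methods name no block; it was used because both zones came from the same animals by the labels. After removal of zone means, the same-mouse correlation across genes was 0.165, 0.0138, 0.137 and 0.0579 for mice 1, 2, 6 and 13, and mean correlations with other mice lay between -0.0615 and -0.00832. Libraries held 192882 to 631474 counts. Counting intervals are exact at 95%, and a count of 0 allows up to 3 counts. Coordinates and exon lengths are from GENCODE M21, and promoter windows from RefSeq.

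The 9 genes and all lists were chosen with earlier results of these data known. Named are all 9 factors, genes on their opposite strand with at least 1 count, up to 5 called genes per pathway list by adjusted p with a few uncalled relatives added after their values were seen, the 3 genes most like each factor, and up to 2 markers per list, with others added likewise. A listed gene that this rule would name is not reported here. Alternatives were no block, the likelihood ratio test, DESeq2 1.42.0, other scaling, filters and thresholds, pseudocounts of 1 and 5 and each library left out. Leaving out whole mice was added after the data were seen. The fits were tested on simulated counts. Scripts ran in Python 3.11.15, with plots from matplotlib 3.10.9.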

Additional observations from a re-analysis of the deposited data

Results flagged for a closer look

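Among the groups of 4 libraries, the gap between the highest library and the next exceeded Dixon's 95% critical value for 3 factors, all in RZ. Chance alone passes this value in about 1 in 20 groups of normally distributed values. Low counts are not such values, so the rate here is not known. For Sox6 the RZ library of mouse 2 gave 62.1 CPM, from 20 counts, and the others 9.68 to 14.8. For Trps1 the RZ library of mouse 6 gave 266 CPM, and the others 58.996 to 92.0. For Foxa2 the RZ library of mouse 6 gave 1.93 CPM, which is a single count, and the others 0, a case that the rule always flags.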

How the results depend on the processing

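Sox9 and Runx1 kept their direction in every alternative that could test them and were called in each, except in the first fit without the PZ library of mouse 13, where 0 of the 9 factors were called (3 in the wider fit, Sox9, Runx1 and Mef2c). There were 4 called at an adjusted p below 0.05 and 4 when all genes with a count entered, and 1 (Sox9, since Runx1 could not be tested) when 10 counts were required in every library. With each library left out in turn, 0 to 3 were called in the first fit and 2 to 5 in the wider fit, where 4 were called with all libraries and 2 without the RZ library of mouse 2, the PZ library of mouse 1 or the PZ library of mouse 2. Without both libraries of a mouse, 2 to 3 were called in the first fit and 2 to 4 in the wider one. Requiring 10 counts in every library left 1 in the wider fit. Without the block for the mouse, which the labels pair, 682 genes were called (419 higher in RZ, 263 in PZ), Sox9 and Runx1 among them, and the wider fit called 798 genes and 3 factors, losing Sox5; Trps1 moved from -0.79 to -0.53 and Runx3 from -0.92 to -0.40. No other call of a factor in the first fit changed with the block.

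Over all genes, the 614 calls (384 higher in RZ, 230 in PZ) became 953 (396 in PZ) with the likelihood ratio test, 1104 (659 and 445) with all genes with a count, 291 (148 and 143) with 10 counts in every library, and 995 (584 and 411) at an adjusted p below 0.05. They ranged from 112 to 597 with libraries left out (71 to 357 in RZ, 41 to 240 in PZ), the lowest without the PZ library of mouse 13, with 226 without the RZ library of that mouse, 401 without RZ of mouse 1 and 392 without PZ of mouse 2. With mice left out they ranged from 222 to 576 (151 to 349 and 71 to 227). The 1109 calls of the wider fit became 291 with 10 counts in every library and 1667 at 0.05, and ranged from 586 to 928 with libraries and 590 to 965 with mice left out. The sign of Sox6 turned without mouse 2, at -0.738 without its RZ library, -0.746 without its PZ library and -0.739 without both, and its value reached 0.533 without mouse 6. The cause of these changes was not tested. Scaling by library totals alone moved the median log2 fold change of all genes from 0.04 to 0.23, and no factor changed direction; in the wider fit it moved the calls from 672 and 437 to 927 higher in RZ and 288 in PZ. Foxa2 had no value in either fit.

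These are 4 mice and shallow libraries. Standard errors of Runx1, Runx3 and Sox6, with at most 29 counts per library, were 0.72 to 0.76 on the log2 scale, and a missed threshold does not show that the zones were alike.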
